A study of Rattus norvegicus with 16 samples.

Results

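The effect of estradiol on the hypoxic lung was read from 8 of the 16 arrays of the series: 4 lungs of rats kept in hypoxia with estradiol and 4 lungs of rats kept in hypoxia without it, chosen by their sample titles. All rats were male Sprague-Dawley, with 1 array per rat. Both groups spent 2 weeks in a hypobaric chamber at 362 mmHg, which corresponds to breathing 10% oxygen at sea level. The estradiol rats also carried an osmotic pump under the skin that delivered 75 µg/kg/day of estradiol, the main circulating estrogen, for 3 weeks, beginning 1 week before the chamber. Nothing in the labels says whether the hypoxia rats carried pumps without drug, so the drug and the implant cannot be told apart. The other arrays came from 4 normoxic rats and from 4 rats given hypoxia, estradiol and 3 mg/kg/day of fulvestrant, an antagonist of the nuclear estrogen receptors. They entered the estimate of spread and are quoted beside some genes as context. Normoxia replicate 4 has a title that says normoxia and a treatment field that says hypoxia. It is no part of the contrast, and without it 118 genes passed in place of the 112 given below.

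Chronic hypoxia thickens the walls of small pulmonary arteries, raises pulmonary artery pressure and loads the right ventricle. Estrogen acts through the nuclear receptors Esr1 and Esr2, which bind DNA, and through the membrane receptor Gper1. In the vessel wall, endothelial cells, pericytes, smooth muscle cells and adventitial fibroblasts exchange signals of the BMP, TGF-beta, Notch, Wnt and apelin families, while neutrophils, monocytes and macrophages populate the same tissue.

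The samples had the RNA of lung: the surfactant gene Sftpc lay between 13.83 and 13.94 on the log2 scale in all 8 arrays, and Ager, a marker of alveolar type 1 cells, between 13.45 and 13.59. Values are log2 RMA signals, in which a difference of 1 is a 2-fold difference. The median SD of a gene over 4 arrays was 0.115 in hypoxia and 0.129 with estradiol. On the second principal component, which held 17.4% of the variance, estradiol replicates 2 and 3 lay at -25.4 and -22.3, estradiol replicates 1 and 4 at -5.18 and 1.97, and the hypoxia arrays between -0.297 and 7.39. Replicates are numbered in order of submission. No batch is named in the labels and samples were submitted group by group, so that a batch and the treatment cannot be told apart. The p-values measure the spread between these rats, and in whole lung fewer cells of a type and less RNA per cell cannot be told apart.

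The BMP antagonist Grem1, the Wnt modulator Sfrp2, the apelin gene Apln and the pericyte gene Rgs5 were lower with estradiol in all 4 rats. Of 15 measured genes of mature neutrophils 8 were called higher, each above hypoxia in all 4 rats, and so were 4 of 20 genes that respond to glucocorticoids. The lists were chosen with earlier results of these data known, so their counts are no independent support. The estrogen receptor genes did not pass the test. Of 14506 genes, 112 (0.772%) passed limma's moderated test at a Benjamini-Hochberg adjusted p under 0.05, referred to here as called: 45 higher with estradiol (0.31%) and 67 lower (0.462%). The smallest adjusted p was 0.00848, and 5 of the 112 were under 0.03. Most called differences were modest, since 44 of 112 reached 1.5-fold, 11 were at least 2-fold higher and 3 at least 2-fold lower. Without a model, the 4 estradiol arrays lay wholly above or wholly below the 4 hypoxia arrays in 965 genes (6.65%), 463 of them higher (3.19%) and 502 lower (3.46%). This was so for 109 of the 112 called genes.

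The called genes were sorted by how far they needed estradiol replicates 2 and 3. A call was counted as held when the arrays of the groups did not overlap and the change over replicates 1 and 4 alone was at least the full change divided by 1.5. By this count 97 calls held, 35 higher and 62 lower. Another 14 rested on replicates 2 and 3, 9 higher and 5 lower. The remaining gene, Pxdc1, met neither description because its estradiol replicate 3 lay within the hypoxia range. When each of the other 5 pairs of estradiol arrays was left out in the same way, between 1 and 4 calls rested on the pair. These counts describe genes chosen on the same arrays and carry no test. Over the called genes the median share of the change that remained without replicates 2 and 3 was 0.865, with 0.804 for those higher and 0.899 for those lower.

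**Figure D1:**
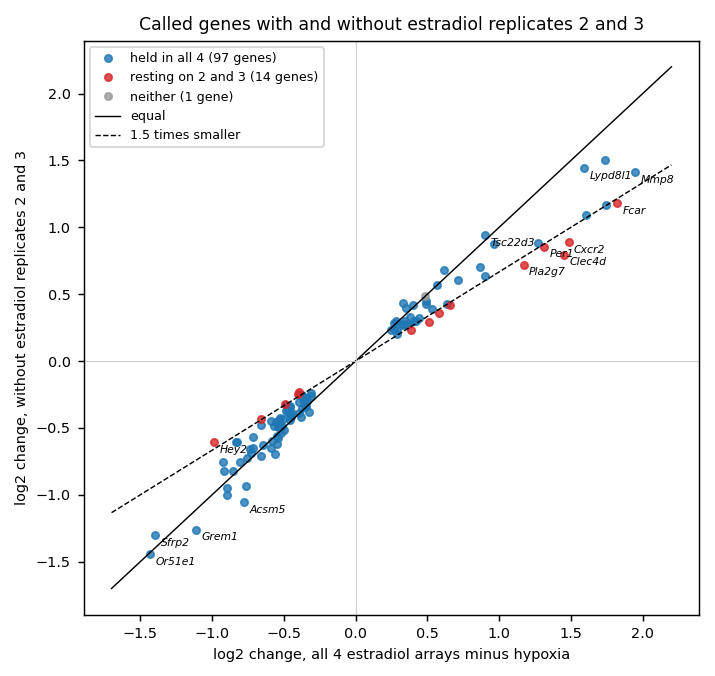
Each point is a gene called for estradiol against hypoxia, with its log2 change over all 4 estradiol arrays on the x axis and the change over replicates 1 and 4 alone on the y axis. Points on the solid line kept the full change, and the 14 red genes, which rested on replicates 2 and 3, lie at or inside the dashed line of a change 1.5 times smaller.

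Size and significance behaved differently when arrays were left out. Without replicates 2 and 3 limma called 0 of 14506 genes, with a smallest adjusted p of 0.0533 and 1335 genes at an unadjusted p under 0.05. Leaving out replicates 1 and 3 also gave 0 calls by limma, with 1870 genes at an unadjusted p under 0.05. Leaving out replicates 1 and 4, so that replicates 2 and 3 alone stood for estradiol, gave 977 calls. All 112 genes kept their sign and an unadjusted p under 0.05 by limma in each of these fits. They had been chosen on the same arrays, so this follows largely from the choice and is no independent support. Leaving out single arrays moved the count from 112 to 4 without estradiol replicate 2 or replicate 3, to 219 without replicate 1 and to 355 without replicate 4. On the hypoxia side 7 genes were called without replicate 1, 3 without replicate 2, 95 without replicate 3 and 5 without replicate 4. The number of called genes thus moved with single rats of either group.

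**Figure D2:**
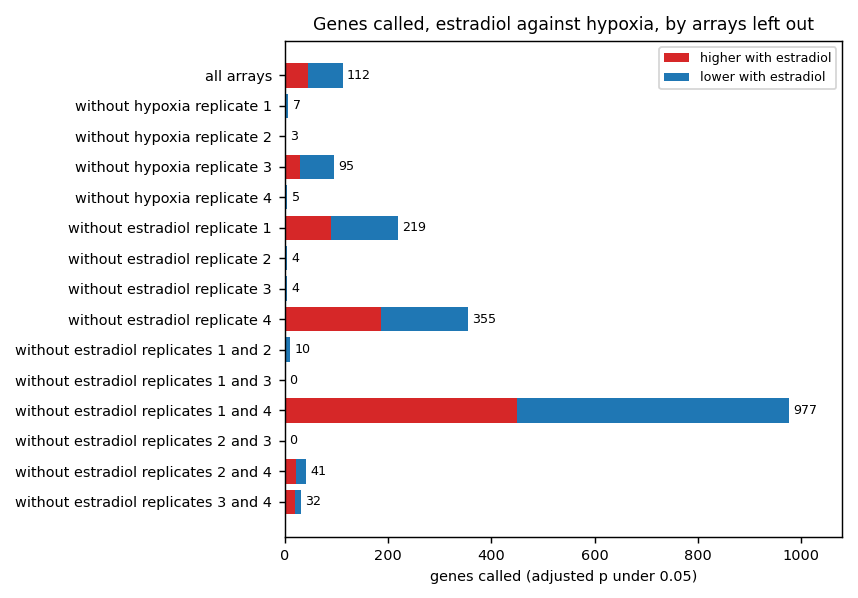
Bars give the number of genes called (adjusted p under 0.05 by limma) for estradiol against hypoxia with all arrays, without each array in turn and without each pair of estradiol arrays, with red for higher and blue for lower with estradiol. The count ran from 0 without replicates 1 and 3, or 2 and 3, to 977 without replicates 1 and 4.

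Grem1, Gask1b and Lypd8l1 were called in all 8 fits that left out 1 array. S100a8 was called in 5 of the 8, and 45 and 53 of the other genes in 2 and 3 of them. To show what lies upstream of the genes that held throughout, the stretch from 250 bases before to 50 bases after each start is given from RefSeq (GRCr8), on the strand of the gene. Capitals mark AGGTCA, the core of an estrogen response element, or its reverse complement TGACCT. The windows are chr3:120978270-120978569 on the minus strand for Grem1, chr2:167345592-167345891 on the plus strand for Gask1b and chr10:43115729-43116028 on the plus strand for Lypd8l1.
Grem1: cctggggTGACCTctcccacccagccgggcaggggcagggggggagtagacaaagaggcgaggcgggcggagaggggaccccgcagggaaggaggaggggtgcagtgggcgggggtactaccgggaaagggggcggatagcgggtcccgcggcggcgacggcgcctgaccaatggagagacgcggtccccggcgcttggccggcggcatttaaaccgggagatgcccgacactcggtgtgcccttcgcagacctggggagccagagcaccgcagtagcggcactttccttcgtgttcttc
Gask1b: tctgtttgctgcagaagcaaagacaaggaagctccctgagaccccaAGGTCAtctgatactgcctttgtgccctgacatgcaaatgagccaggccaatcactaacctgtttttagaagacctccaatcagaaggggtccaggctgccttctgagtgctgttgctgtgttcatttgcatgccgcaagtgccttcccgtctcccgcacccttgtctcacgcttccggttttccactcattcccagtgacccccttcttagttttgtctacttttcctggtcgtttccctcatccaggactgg
Lypd8l1: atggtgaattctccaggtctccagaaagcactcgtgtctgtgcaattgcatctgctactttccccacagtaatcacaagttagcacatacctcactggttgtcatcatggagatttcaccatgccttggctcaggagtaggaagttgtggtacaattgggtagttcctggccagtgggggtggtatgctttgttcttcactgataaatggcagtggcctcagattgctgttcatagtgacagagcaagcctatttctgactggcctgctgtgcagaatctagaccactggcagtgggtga

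The core is present once in the Grem1 window and once in the Gask1b window, where the match begins at positions -243 and -204 relative to the start, and these letters are not in the Lypd8l1 window. Searched on both strands, AGGTCA was present in 8 of 53 windows of genes called lower (15.1%), in 3 of 36 windows of genes called higher (8.33%) and in 1590 of 11968 windows of all genes tested (13.3%). The full palindrome GGTCANNNTGACC, which contains the core where an A precedes it or a T follows it, was in 0 of the called windows and in 3 of all (0.0251%). The glucocorticoid element GNACANNNTGTNC was in 0 called windows and in 45 of all (0.376%). The clock-gene E-box CACGTG was in 2 windows of genes called higher (5.56%), in 7 of genes called lower (13.2%) and in 942 of all (7.87%). A match describes these letters and shows no binding.

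Grem1 (probe set 10848281) encodes gremlin, a secreted protein that binds BMP ligands and keeps them from their receptors. Its log2 signal was 7.91, 8.02, 8.09 and 7.90 in the hypoxia arrays and 6.90, 7.03, 7.0 and 6.54 with estradiol. The groups did not overlap, with replicate 4 the lowest. By mean level Grem1 ranked at percentile 29.3 of all genes. Grem1 was 2.16-fold lower with estradiol (log2 change -1.11, SE 0.14, limma adjusted p = 0.00848), and without replicates 2 and 3 the change was -1.26. Grem1 was 6.27 ± 0.20 in normoxia (SD, n = 4) and 7.35 ± 0.30 with fulvestrant added, below and above the estradiol mean of 6.87 ± 0.23.

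Gask1b (probe set 10816017) encodes a Golgi-associated kinase. Its signal was 11.28, 11.22, 11.26 and 11.15 in hypoxia and 10.81, 10.83, 10.63 and 10.86 with estradiol. The difference was small, but the arrays were tight and did not overlap, and the gene was 1.36-fold lower (log2 change -0.45, SE 0.06, limma adjusted p = 0.00848). Lypd8l1 (probe set 10733849), a member of the Ly6/Plaur domain family, moved the other way. Its signal was 8.07, 7.83, 7.75 and 7.66 in hypoxia and 9.11, 9.77, 9.36 and 9.43 with estradiol. All estradiol arrays lay above all hypoxia arrays, and the increase was 3.01-fold (log2 change 1.59, SE 0.21, limma adjusted p = 0.00848) and 1.44 on the log2 scale without replicates 2 and 3.

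When all 29214 probe sets were tested, named or not, limma called 4: those of Grem1, Gask1b and Lypd8l1, and probe set 10700622, which has no gene name in the platform annotation used here. That probe set read 4.10, 4.36, 4.71 and 4.92 in hypoxia and 6.10, 6.64, 6.33 and 6.31 with estradiol. The groups did not overlap, and all 4 estradiol arrays were more than 2-fold above the highest hypoxia array. These readings were dim, below the array medians of 7.69 to 7.77, and those in hypoxia were the dimmest. The probe set read 6.34 ± 0.29 in normoxia (SD, n = 4) and 5.88 ± 0.47 with fulvestrant.

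**Figure D3:**
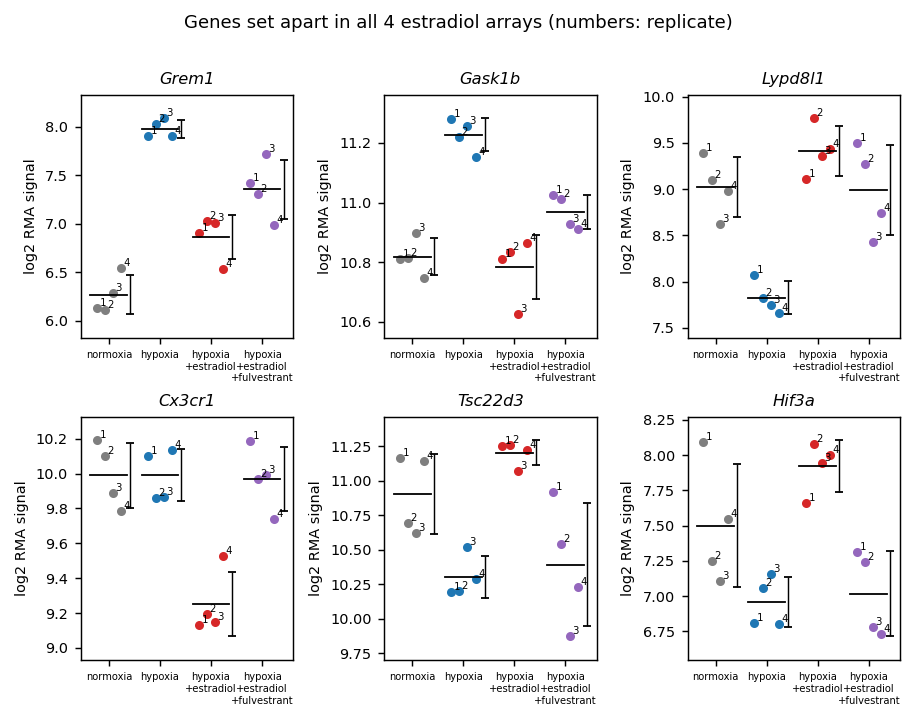
Points are log2 RMA signals of single arrays, numbered by replicate, in the 4 groups for 6 genes, with the group mean as a line and the SD as a bar. In each panel the 4 estradiol arrays lie apart from the 4 hypoxia arrays: lower for Grem1, Gask1b and Cx3cr1, and higher for Lypd8l1, Tsc22d3 and Hif3a.

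In the BMP and TGF-beta list 3 of 38 measured genes were called, all lower, against 0.462% of all genes called lower. The list's median change was -0.08 against -0.02 over all genes. Beside Grem1 the called genes were Inhba, the activin A subunit, and Tgfb2, a TGF-beta ligand. Inhba read 8.19, 8.20, 7.89 and 7.96 in hypoxia and 7.62, 7.49, 7.50 and 7.53 with estradiol. The estradiol arrays were close together, all below the hypoxia arrays, and the log2 change was -0.53 (SE 0.09, limma adjusted p = 0.0362). Tgfb2 went from 11.01 ± 0.14 to 10.52 ± 0.18 (SD, n = 4 each), a change of -0.49. The receptor Bmpr2, whose loss causes heritable pulmonary hypertension, did not pass: it was 12.79 ± 0.13 in hypoxia and 12.81 ± 0.06 with estradiol, with a change of 0.02 (SE 0.06, adjusted p = 0.891).

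Sfrp2, a secreted modulator of Wnt signalling, was the only called gene among 25 of the Wnt list. Its signal was 10.74, 10.33, 11.01 and 10.04 in hypoxia and 9.78, 8.96, 9.12 and 8.68 with estradiol. The hypoxia arrays were spread, yet all estradiol arrays lay below them, and Sfrp2 was 2.63-fold lower (log2 change -1.40, SE 0.27, limma adjusted p = 0.0362). In the Notch list 2 of 16 genes were called, both lower, against 0.462% of all genes called lower. Dll4, an endothelial Notch ligand, fell from 10.50 ± 0.21 to 9.96 ± 0.19 (SD, n = 4 each) and held in all 4 arrays. Hey2, a transcriptional target of Notch, fell by 0.99 on the log2 scale and rested on replicates 2 and 3. Its estradiol arrays read 8.23, 7.62, 7.79 and 8.69 against 8.81 to 9.31 in hypoxia, so that replicate 4 was only just below the hypoxia range.

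Apln encodes apelin, a peptide made by tip and capillary endothelium. Its signal was 10.73, 10.52, 10.10 and 10.33 in hypoxia and 9.96, 9.87, 9.26 and 9.37 with estradiol. The groups did not overlap, and Apln was 1.75-fold lower (log2 change -0.81, SE 0.16, limma adjusted p = 0.0362). Its receptor Aplnr read 11.78 to 12.15 in hypoxia and 11.40 to 11.74 with estradiol, without overlap, but did not pass (adjusted p = 0.0616). Of 20 angiogenic peptides and receptors 2 were called, Apln and Pdgfrb, both lower, and 5 lay wholly below hypoxia. The shares over all genes were 0.462% called lower and 3.46% wholly below. Vegfa, the main endothelial growth factor, was 12.29 ± 0.04 in hypoxia and 12.17 ± 0.13 with estradiol (limma adjusted p = 0.37). Edn1, which encodes the vasoconstrictor endothelin, was 11.26 ± 0.65 and 11.21 ± 0.79 (adjusted p = 0.968). In the list of 42 vascular tone genes limma called 0, and the median was -0.08. With 0.772% of all genes called, a list of this size can have 0 calls without differing from other genes.

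Of 37 cytokines and chemokines Cxcl6, a chemokine that draws neutrophils, was the only call. It read 6.86, 7.46, 7.02 and 7.65 in hypoxia and 6.21, 6.36, 6.45 and 6.38 with estradiol. The estradiol arrays were close together below all hypoxia arrays, and Cxcl6 was 1.86-fold lower (log2 change -0.90, SE 0.18, limma adjusted p = 0.0362). Cxcl6 was dim, at percentile 23.4 of all genes by mean level, and RMA compresses differences of such probe sets. In the list of 21 genes for neutrophil attraction and adhesion it was again the only call, and 13 of the 21 changes were above 0. Il1b and Alox5ap lay wholly above hypoxia without passing (log2 changes 1.01 and 0.37, limma adjusted p = 0.0814 and 0.134). Vcam1 lay wholly below it without passing (log2 change -0.46, limma adjusted p = 0.186). Cntf, the ciliary neurotrophic factor, which is in none of the lists, rose by 0.57 on the log2 scale with and without replicates 2 and 3.

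Membrane receptors of leukocytes moved both ways. Cx3cr1, the fractalkine receptor of monocytes and some macrophages, was 10.10, 9.86, 9.87 and 10.14 in hypoxia and 9.13, 9.20, 9.15 and 9.53 with estradiol. No arrays overlapped, replicate 4 was the closest to hypoxia, and Cx3cr1 was 1.67-fold lower (log2 change -0.74, SE 0.12, limma adjusted p = 0.0295). Of 17 markers of monocytes and interstitial macrophages it was the only call. The complement genes C1qa, C1qb and C1qc also lay wholly below hypoxia, with changes of -0.30, -0.32 and -0.37 that did not pass (adjusted p = 0.19, 0.0921 and 0.0989). Adgre1, of the same list, lay wholly below hypoxia too, with a change of -0.41 (adjusted p = 0.0556). Plac8 lay wholly above hypoxia with a change of 0.52 that did not pass either (adjusted p = 0.0526), and 6 of the 17 changes were above 0. The mean log2 level of that list overlapped between the groups, at 9.82 to 10.14 in hypoxia and 9.83 to 10.12 with estradiol.

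Mrc1, the macrophage mannose receptor, rose from 11.05 ± 0.09 to 11.54 ± 0.20 (SD, n = 4 each). Its estradiol arrays, from 11.33 to 11.78, all lay above the hypoxia range of 10.93 to 11.13. Of 16 measured alveolar macrophage markers Mrc1 was the only one called higher and the carbonic anhydrase Car4 the only one called lower. In that list 7 of the 16 changes were above 0, and the median was -0.04. The list's mean log2 level overlapped, at 9.86 to 10.28 in hypoxia and 9.75 to 10.22 with estradiol. Il7r, the interleukin 7 receptor of T cells, read 8.10, 8.47, 8.18 and 8.83 in hypoxia and 9.12, 9.62, 9.49 and 8.96 with estradiol. It was 1.86-fold higher (log2 change 0.90, SE 0.17, limma adjusted p = 0.0362), with replicate 4 just above hypoxia. It was the only call among 21 T cell genes, of which 5 lay wholly above hypoxia, against 3.19% of all genes. C3ar1, the receptor for complement fragment C3a, fell by 0.66 on the log2 scale and held in all 4 arrays.

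Or51e1, a gene of the olfactory receptor family, showed the largest called decrease. It read 10.46, 9.79, 10.01 and 9.83 in hypoxia and 9.15, 8.95, 8.24 and 8.0 with estradiol. The arrays did not overlap, and the gene was 2.7-fold lower (log2 change -1.43, SE 0.28, limma adjusted p = 0.0362). Without replicates 2 and 3 the change was -1.44.

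Of 13 measured markers of adventitial fibroblasts 3 were called, Sfrp2, Srpx and Mfap5, all lower, against 0.462% of all genes called lower. The median was -0.29 over 4 arrays against -0.02 over all genes. Srpx, a secreted sushi-repeat protein, was 10.69 to 10.88 in hypoxia and 9.51 to 10.27 with estradiol, a change of -0.90. Mfap5, a protein of elastic microfibrils, was 10.71 to 11.02 and 9.96 to 10.37, a change of -0.65. Both were separated without overlap, and the change without replicates 2 and 3 was -1.0 for Srpx and -0.63 for Mfap5.

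In the list of 33 extracellular matrix and crosslinking genes 2 were called, Mfap5 and Loxl1, both lower, and 13 lay wholly below hypoxia. The shares over all genes were 0.462% called lower and 3.46% wholly below. Loxl1, which crosslinks elastin, was 12.44, 12.26, 12.16 and 12.34 in hypoxia and 11.59, 11.71, 11.95 and 11.78 with estradiol. All estradiol arrays were lower, by 1.46-fold on the mean (log2 change -0.55, SE 0.11, limma adjusted p = 0.0387). The list's median was similar in each estradiol array, at -0.19, -0.31, -0.26 and -0.19 from the hypoxia mean. The fibrillar collagens Col1a1, Col1a2 and Col3a1 did not pass, with changes of -0.38, -0.34 and -0.38.

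Pericyte markers included 3 calls of 11, all lower, against 0.462% of all genes called lower. Rgs5, a regulator of G protein signalling and a classic pericyte marker, was 11.85, 11.53, 11.49 and 11.68 in hypoxia and 11.15, 10.85, 10.85 and 10.68 with estradiol. All estradiol arrays lay below all hypoxia arrays, and Rgs5 was 1.69-fold lower (log2 change -0.76, SE 0.13, limma adjusted p = 0.0362). Vtn, which encodes vitronectin, fell by 0.51 and Pdgfrb, the receptor through which pericytes are recruited, by 0.35 on the log2 scale, and both held in all 4 arrays. The list's median in estradiol replicates 1 to 4 was -0.06, -0.26, -0.46 and -0.03. Over all 4 it was -0.21, and without replicates 2 and 3 it was -0.08. Of the 11 markers 4 lay wholly below hypoxia and 1 wholly above, against 3.46% and 3.19% of all genes. In the list of 18 contractile smooth muscle genes limma called 0, where 0.772% of all genes were called, with a median of -0.08.

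The called genes of the endothelial lists were all lower. Of 12 lung capillary markers 2 were called, Apln and the carbonic anhydrase Car4, and 5 lay wholly below hypoxia, with a median of -0.18. Over all genes 0.462% were called lower and 3.46% lay wholly below hypoxia. Car4 fell by 0.33 on the log2 scale with an adjusted p of 0.0485 by limma, and it was called in 0 of the 8 fits with an array removed. Of 15 general endothelial markers Robo4, a guidance receptor that stabilises vessels, was the only call. Its estradiol arrays read 9.28, 9.07, 8.87 and 9.29 against 9.41 to 9.65 in hypoxia, and the change of -0.39 became -0.23 without replicates 2 and 3. Of 14 arterial markers 2 were called, Hey2 and Dll4.

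Further called decreases held in all 4 arrays. Scara3, a scavenger receptor, fell by 0.93, Fam151a by 0.92 and Prnd, which encodes the prion-like protein doppel, by 0.85 on the log2 scale. Prnd was dim, at percentile 26.4 of all genes by mean level. Lypd1, a Ly6 family protein, fell by 0.83 from 9.17 ± 0.20 (SD, n = 4), and it was 7.01 ± 0.18 in normoxia. Meox2, a homeobox factor of mesenchyme and vessels, fell by 0.83 from 9.67 ± 0.23. Smaller decreases that held included those of the cadherin Cdh13 (-0.73), the hedgehog ligand Shh (-0.46), the transcription factors Ebf1 (-0.38) and Zfp423 (-0.39), the semaphorin receptor Plxnd1 (-0.36) and the secreted proteins Spon2 (-0.76), Cpz (-0.66), Ccn5 (-0.52), Angptl2 (-0.51) and Htra1 (-0.48). Increases of under 1.5-fold that held included those of the signalling kinase Jak2 (0.29), the deubiquitinase Cyld (0.29), the lysosomal trafficking gene Lyst (0.36), the kinase Lrrk2 (0.36) and Eed (0.35), a subunit of a polycomb repressive complex.

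Genes of mature neutrophils made up 8 of the 11 called genes that were at least 2-fold higher. Of 15 measured genes of the list these 8 were called, all higher, and 12 lay wholly above hypoxia. The shares over all genes were 0.31% called higher and 3.19% wholly above. The list was chosen with earlier results of these data known. The median change was 1.27 against -0.02 over all genes. In single estradiol arrays the list's median was 0.81, 1.94, 2.02 and 0.92 from the hypoxia mean, so it was positive in all 4 and greatest in replicates 2 and 3. Without those arrays it was 0.80. The mean log2 level over the list was 7.42 to 8.09 in hypoxia and 8.52 to 9.50 with estradiol, without overlap, and it was 7.84 to 8.34 in normoxia and 8.15 to 8.47 with fulvestrant.

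S100a8, a calcium-binding alarmin abundant in the neutrophil cytosol, read 6.33, 5.97, 5.72 and 6.43 in hypoxia and 7.33, 8.51, 8.35 and 7.24 with estradiol. All estradiol arrays were above hypoxia, replicates 2 and 3 by the most. The increase was 3.35-fold (log2 change 1.74, SE 0.27, limma adjusted p = 0.0295), and 1.17 on the log2 scale without replicates 2 and 3. Its partner S100a9 rose 3.05-fold, from 9.32 ± 0.47 to 10.92 ± 0.60 (SD, n = 4 each). Retnlg, a resistin-like protein of neutrophils, read 8.87, 9.84, 8.95 and 9.00 with estradiol against 7.16 to 7.58 in hypoxia. Here replicate 2 was highest and the other estradiol arrays were close together, and the change of 1.73 became 1.51 without replicates 2 and 3.

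Mmp8, the neutrophil collagenase, had the largest called change, a 3.85-fold increase (log2 change 1.95, SE 0.36, limma adjusted p = 0.0362). It read 8.29, 7.62, 7.18 and 7.33 in hypoxia and 9.10, 10.54, 9.62 and 8.93 with estradiol. The arrays did not overlap, and the change was 1.41 without replicates 2 and 3. Csf3r, the receptor for granulocyte colony-stimulating factor, rose by 1.27 on the log2 scale and held, although replicate 1, at 9.78, was only just above the highest hypoxia array at 9.66.

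The other called neutrophil genes were counted as resting on replicates 2 and 3. The limit of 1.5 divides genes with similar values. Without those replicates the change of S100a8, counted as held, went from 1.74 to 1.17. That of Fcar, counted as resting, went from 1.82 to 1.18. Both were dim, with S100a8 at percentile 26.2 and Fcar at 23.1 of all genes by mean level. Fcar, the IgA receptor, read 5.87, 5.91, 5.08 and 6.40 in hypoxia and 7.13, 7.84, 8.71 and 6.88 with estradiol. Cxcr2, the receptor for neutrophil chemokines, read 8.63, 8.03, 7.62 and 7.94 in hypoxia and 8.89, 9.81, 10.46 and 9.00 with estradiol. Clec4d, a C-type lectin receptor, read 8.49, 8.39, 7.59 and 8.18 in hypoxia and 8.83, 10.09, 10.46 and 9.08 with estradiol. In none of these did the groups overlap, but replicates 1 and 4 sat nearer the hypoxia range, and the log2 changes of 1.82, 1.48 and 1.45 became 1.18, 0.89 and 0.80 without replicates 2 and 3.

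Mmp9, Fpr1, Clec4e and Il1r2 lay wholly above hypoxia but did not pass, with log2 changes of 1.14, 1.11, 1.13 and 1.16 and adjusted p of 0.0559, 0.074, 0.0799 and 0.134. Cxcr1, at -0.14, was the only member of the list with a change below 0. Of 10 granule proteins that neutrophil precursors make limma called 0, where 0.772% of all genes were called, and the median change was 0.11. Among them Ngp lay wholly above hypoxia with a change of 1.73 that did not pass (adjusted p = 0.115), and Lcn2 had a change of -0.76 (adjusted p = 0.256). Lists for other blood cells were read beside these. The erythroid list of 10 genes had a median of -0.50 with 0 calls by limma, where 0.772% of all genes were called. Its mean level overlapped, at 7.61 to 9.34 in hypoxia and 7.54 to 9.06 with estradiol. Of the platelet list 5 of 12 genes were measured, with a mean level of 7.47 to 7.90 in hypoxia and 7.48 to 7.98 with estradiol. The lung vessels had been flushed with saline before freezing, and the part of residual blood in the neutrophil signal was not tested.

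**Figure D4:**
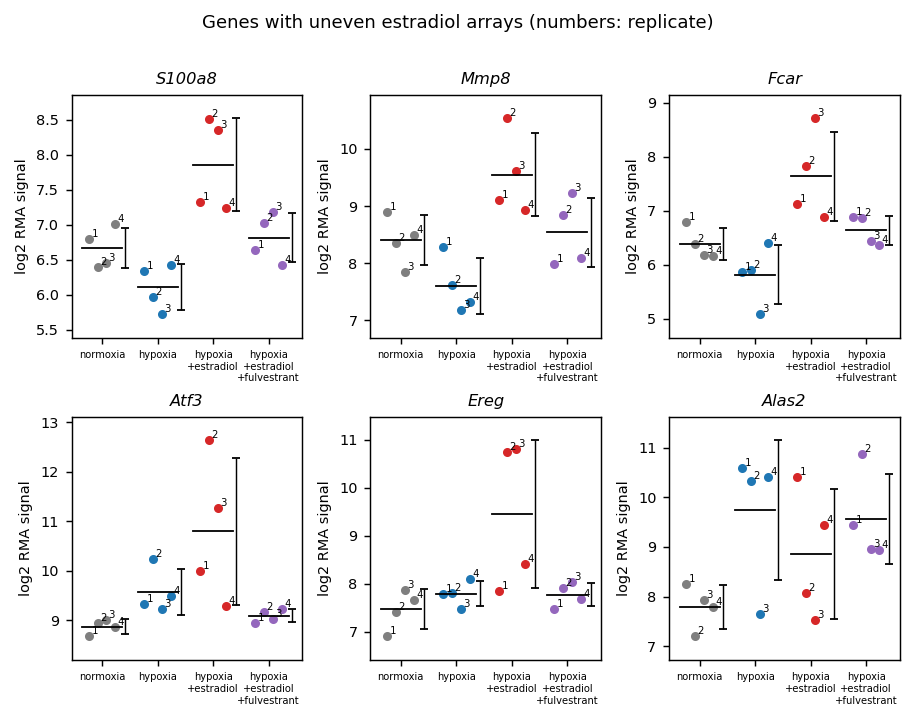
Points are log2 RMA signals of single arrays, numbered by replicate, in the 4 groups, with the group mean as a line and the SD as a bar. S100a8, Mmp8 and Fcar are above hypoxia in all 4 estradiol arrays with replicates 2 and 3 highest, while Atf3 and Ereg are clearly raised in replicates 2 and 3 and Alas2 is low in hypoxia replicate 3 and in estradiol replicates 2 and 3.

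Genes that respond to glucocorticoids were the other list with several increases: 4 of 20 were called, all higher, 7 lay wholly above hypoxia, and the median change was 0.55. The shares over all genes were 0.31% called higher and 3.19% wholly above. This list too was chosen with earlier results of these data known. Without replicates 2 and 3 the median was 0.23. Tsc22d3, the leucine zipper protein known as GILZ, was similar in all 4 rats. It read 10.19, 10.20, 10.52 and 10.29 in hypoxia and 11.26, 11.26, 11.07 and 11.22 with estradiol. The estradiol arrays were close together, all above hypoxia, and the increase was 1.87-fold (log2 change 0.90, SE 0.18, limma adjusted p = 0.0362). Without replicates 2 and 3 it was 0.94 on the log2 scale.

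Hif3a, a member of the hypoxia-inducible factor family that can restrain the others, read 6.81, 7.06, 7.16 and 6.80 in hypoxia and 7.66, 8.08, 7.94 and 8.0 with estradiol. Every estradiol array was higher, and the increase was 1.95-fold (log2 change 0.96, SE 0.19, limma adjusted p = 0.0362). By mean level Hif3a ranked at percentile 32.4 of all genes. Klf9, a Krüppel-like transcription factor, rose from 10.61 ± 0.14 to 11.32 ± 0.21 (SD, n = 4 each) and also held. Fkbp5, a chaperone of the steroid receptors, read 8.43 to 9.64 in hypoxia and 9.82 to 10.91 with estradiol without overlap, but did not pass (log2 change 1.26, adjusted p = 0.06). With fulvestrant added the means were 10.39 ± 0.45 for Tsc22d3, 7.02 ± 0.30 for Hif3a and 10.78 ± 0.19 for Klf9. None of these passed against estradiol alone (limma adjusted p = 0.0699, 0.0638 and 0.0793).

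Per1, a clock gene that glucocorticoids also induce, rose 2.48-fold (log2 change 1.31, SE 0.28, limma adjusted p = 0.0392). It read 10.08, 10.40, 9.69 and 9.54 in hypoxia and 11.07, 11.85, 11.55 and 10.50 with estradiol. Replicate 4 was just above the highest hypoxia array, and the change without replicates 2 and 3 was 0.86. Of 15 clock genes Per1 was the only call, and the list's median was 0.36. Per2 lay wholly above hypoxia (log2 change 1.01, adjusted p = 0.0572).

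Other clock genes differed between the estradiol rats. The activator Bmal1 read 7.55, 9.18, 9.33 and 10.18 with estradiol and 9.39 to 10.06 in hypoxia. Its repressor Nr1d1 read 12.02, 11.51, 10.92 and 8.37 with estradiol and 9.13 to 11.55 in hypoxia. Replicate 1 was thus low in Bmal1 and high in Nr1d1, and replicate 4 was the reverse. The labels give no hour of sampling, and its part in the clock and glucocorticoid genes was not tested.

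Of 32 listed genes for estrogen receptors, metabolism and response 27 were measured and limma called 0, with a median of -0.04. Over all genes 0.772% were called, so a list of this size can have 0 calls without differing from other genes. Esr1 was 7.31 ± 0.21 in hypoxia and 7.21 ± 0.20 with estradiol (log2 change -0.10, SE 0.13, limma adjusted p = 0.763). Esr2 was 6.56 ± 0.26 and 6.45 ± 0.32 (SE 0.15, adjusted p = 0.77), and Gper1 was 8.48 ± 0.12 and 8.48 ± 0.16 (SE 0.11, adjusted p = 0.999). RNA levels of the receptors do not show their activity.

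Pgr, the progesterone receptor and a common estrogen target, was 5.82 ± 0.10 in hypoxia and 5.91 ± 0.28 with estradiol (SD, n = 4 each, limma adjusted p = 0.697). By mean level Pgr ranked at percentile 13.4 of all genes and Esr2 at 21.1. RMA compresses differences of such dim probe sets. Igfbp4 was the only gene of the list without overlap, at 11.06 to 11.31 in hypoxia and 10.30 to 11.05 with estradiol, and did not pass (log2 change -0.52, adjusted p = 0.0663). Cyp1a1, which metabolises estradiol and is induced through the aryl hydrocarbon receptor, read 6.01, 7.04, 6.29 and 9.40 with estradiol against 5.60 to 6.51 in hypoxia. Replicate 4 was far above the rest, and the change of 1.19 did not pass (adjusted p = 0.328). Cyp1a1 was 10.52 ± 0.32 in normoxia.

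The other called increases that rested on replicates 2 and 3, besides Fcar, Cxcr2, Clec4d and Per1, were Pla2g7, Soat1, Bcl2l11, Plek and Usp3. Pla2g7, which inactivates platelet-activating factor, read 8.13, 7.67, 7.42 and 8.16 in hypoxia and 8.44, 9.11, 9.81 and 8.69 with estradiol. Replicate 3 was highest, and the change of 1.17 became 0.72 without replicates 2 and 3. Soat1, which esterifies cholesterol, read 11.29, 11.63, 11.75 and 11.21 with estradiol against 10.87 to 11.05 in hypoxia, and its change of 0.51 became 0.29. Bcl2l11, the apoptosis gene also called Bim, went from 0.58 to 0.36, Usp3, a histone deubiquitinase, from 0.39 to 0.23 and Plek, a protein kinase C substrate of leukocytes and platelets, from 0.66 to 0.42. In Plek replicate 4, at 8.94, lay within the hypoxia range of 8.53 to 9.01.

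The called decreases of this kind were Hey2, Lbh, Clu, Lrig3 and Robo4. Lbh, a transcriptional cofactor, read 12.62, 12.22, 12.01 and 12.47 in hypoxia and 11.78, 11.33, 11.57 and 12.02 with estradiol. Replicate 4 fell inside the hypoxia range, and the change of -0.66 became -0.43. Clu, which encodes the secreted chaperone clusterin, went from -0.49 to -0.32 and Lrig3 from -0.40 to -0.24. In 12 of the 14 genes that rested on replicates 2 and 3, all but Plek and Lbh, the estradiol arrays stayed outside the hypoxia range. On average the differences were smaller in replicates 1 and 4. All 4 arrays had entered the choice of these genes, so the separation carries no test.

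Estradiol replicates 2 and 3 were also the arrays with the most large differences. Counting genes at least 2-fold from the hypoxia mean gave 50, 187, 160 and 74 in replicates 1 to 4. Of the 112 called genes, 11 were farthest from hypoxia in replicate 1, 33 in replicate 2, 54 in replicate 3 and 14 in replicate 4. Among hypoxia arrays, the count of genes at least 2-fold from the mean of the other hypoxia arrays ran from 16 to 54.

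Immediate early genes, which cells transcribe within minutes of a stimulus, were uneven between the estradiol rats. Of 28 genes limma called 0, where 0.772% of all genes were called. The median was 0.39 over all 4 arrays and 0.04 without replicates 2 and 3. In single arrays it was 0.01, 0.95, 0.37 and 0.05. Atf3, a stress-induced transcription factor, read 9.32, 10.24, 9.23 and 9.48 in hypoxia and 9.99, 12.63, 11.26 and 9.28 with estradiol. Replicates 2 and 3 were above the highest hypoxia array, replicates 1 and 4 lay within the hypoxia range, and the change of 1.23 (limma adjusted p = 0.234) became 0.07.

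Nr4a1, an orphan nuclear receptor, read 9.27, 12.14, 10.90 and 8.94 with estradiol and 8.87 to 10.44 in hypoxia. Its relative Nr4a3 read 7.32, 9.45, 8.58 and 7.07 with estradiol and 7.18 to 7.73 in hypoxia. Fos, a subunit of AP-1, read 8.20, 10.76, 9.74 and 8.64 with estradiol and 7.81 to 9.52 in hypoxia. For each of these genes replicates 2 and 3 were above the hypoxia range. Hypoxia replicate 2 was the highest hypoxia array for Atf3, Nr4a1, Nr4a3 and Fos, so uneven levels were present in the hypoxia group too.

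Other genes with the greatest dependence on the same arrays did not pass the test either. Ereg, which encodes the growth factor epiregulin, read 7.85, 10.73, 10.80 and 8.40 with estradiol against 7.47 to 8.10 in hypoxia, and its change of 1.65 (limma adjusted p = 0.136) became 0.33. The neutrophil chemokine Cxcl2 read 6.44, 9.16, 6.46 and 5.04 with estradiol against 5.38 to 6.15 in hypoxia, so that replicate 2 was far above the others. Its relative Cxcl1 read 8.30, 11.02, 9.56 and 8.58 with estradiol against 8.69 to 9.26 in hypoxia, with replicates 1 and 4 below hypoxia. The change of Rgs1, a regulator of G protein signalling in leukocytes, was 0.79 over all 4 arrays and -0.31 without replicates 2 and 3.

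Myl7, a myosin light chain of atrial muscle, read 6.99, 9.33, 9.85 and 7.16 with estradiol and 8.72, 7.10, 9.06 and 6.85 in hypoxia, so high and low arrays were in both groups. The cardiac muscle list of 11 genes had mean levels of 7.0 to 7.52 in hypoxia and 6.96 to 7.64 with estradiol. For Gp2, a glycoprotein of secretory granules, and Lpo, the lactoperoxidase of airway secretions, the difference was larger without replicates 2 and 3. It was -3.15 in place of -1.68 for Gp2 and 1.30 in place of 0.55 for Lpo, and neither passed (limma adjusted p = 0.315 and 0.437).

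Alas2, the erythroid enzyme that starts haem synthesis, read 10.60, 10.32, 7.64 and 10.41 in hypoxia and 10.40, 8.06, 7.53 and 9.44 with estradiol. Hypoxia replicate 3 was as low as the lowest estradiol arrays and the groups overlapped. The change was -0.89 (limma adjusted p = 0.55) over all arrays and 0.18 without estradiol replicates 2 and 3. The globin genes Hba-a3, Hbb and Hbb-b1 had the same low hypoxia array and changes of -0.86, -0.44 and -0.44, which became -0.03, 0.32 and 0.46. Globin genes are near-identical copies, and the probe sets may share signal. Over the 10 measured erythroid genes the single estradiol arrays had medians of 0.41, -0.72, -1.34 and -0.26.

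Of 21 interferon-stimulated genes limma called 0, where 0.772% of all genes were called. The median was -0.21, and it was -0.02 without replicates 2 and 3. Single estradiol arrays had medians of 0.01, -0.27, -0.75 and 0.02. Rsad2, which encodes the antiviral protein viperin, read 9.26, 7.79, 8.05 and 9.53 with estradiol against 9.05 to 9.70 in hypoxia. Replicates 2 and 3 lay below hypoxia and the other estradiol arrays within its range.

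Sox7, an endothelial transcription factor, read 10.57, 8.82, 8.84 and 10.08 with estradiol and 9.70 to 10.65 in hypoxia. Mycn, a Myc family factor, read 9.20, 7.45, 7.63 and 8.67 with estradiol and 8.82 to 9.31 in hypoxia. Replicates 2 and 3 lay below every hypoxia array for both, as did replicate 4 for Mycn. Slitrk6, a neuronal membrane protein, read 9.38, 7.0, 6.69 and 8.85 with estradiol and 7.42 to 9.08 in hypoxia. Ffar3, a receptor for short-chain fatty acids, read 10.19, 8.98, 8.61 and 10.11 with estradiol and 9.15 to 10.15 in hypoxia. For Slitrk6 and Ffar3 replicates 1 and 4 lay above the hypoxia mean and replicates 2 and 3 below it, and the changes over all 4 arrays were -0.18 and -0.12.

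**Figure D5:**
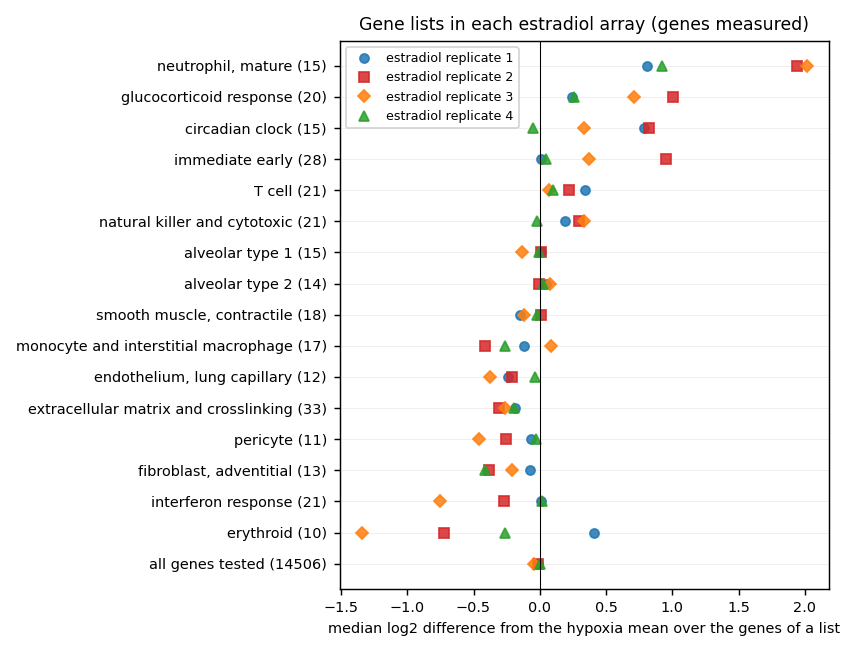
Each marker is the median, over the measured genes of a list, of the log2 difference between 1 estradiol array and the mean of the 4 hypoxia arrays, with the number of genes in brackets. Mature neutrophil genes are above 0 and matrix genes below 0 in all 4 arrays, whereas immediate early, interferon and erythroid genes lie farthest from 0 in replicates 2 and 3.

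The arrays with fulvestrant added to estradiol give further levels of the same genes, and the comparisons with them reuse the estradiol or hypoxia arrays. Against estradiol alone limma called 7 of 14506 genes (0.0483%): Cx3cr1, Mrc1, Myo5b, Il17rb, Megf6, Prkx and Septin4. Cx3cr1 was 10.19, 9.97, 9.99 and 9.74 with fulvestrant, above all 4 estradiol arrays and spanning the hypoxia range. Its changes were -0.74 for estradiol minus hypoxia and 0.72 for fulvestrant minus estradiol (limma adjusted p = 0.0295 and 0.0403). The corresponding values of Mrc1 were 0.49 and -0.57, and those of Myo5b, a myosin motor of recycling endosomes, 0.28 and -0.46. Grem1, Gask1b and Lypd8l1 gave fulvestrant minus estradiol values of 0.49, 0.19 and -0.43, which did not pass (limma adjusted p = 0.121, 0.161 and 0.362). Fulvestrant with estradiol against hypoxia gave 0 calls by limma, with 1009 genes at an unadjusted p under 0.05.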

How the data were processed

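RNA from the right lung, with an integrity number high in every sample per the labels, was hybridised to Affymetrix rat gene arrays. The deposited table holds log2 signals that the authors made with RMA and Partek, per the submitters' processing notes. Versions, settings and a genome build are not given in the sources used here. RMA gives all arrays the same distribution, which hides any shift common to most genes, and it compresses differences of dim probe sets. The medians of the arrays were 7.69 to 7.77, without missing values. Of 29214 probe sets, 15310 had exactly 1 gene symbol in the platform annotation, 323 several and 13581 none. Where a gene had several (527 genes), the probe set of highest mean over the arrays stood for it, which left 14506 genes, 14480 of them matched to RefSeq by gene ID.

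Estradiol was compared with hypoxia in R 4.3.3 with limma 3.58.1, with 4 group means over all 16 arrays, empirical Bayes moderation and Benjamini-Hochberg adjustment over all genes at 0.05. The code was tested on simulated data. Arrays carry no count depth, and 4 arrays a group limit the precision. The members, the 47 gene lists and the rule for named genes were chosen with earlier results of these data known. The rule took the 12 highest and 12 lowest called changes without overlap, up to 4 called members of each list, Esr1, Esr2, Gper1, Pgr, Cyp1a1, Vegfa, Edn1 and Bmpr2, genes called without each single array, the 10 calls that rested most on estradiol replicates 2 and 3, the 10 genes at either end of dependence on those arrays and 4 immediate early genes. Other genes named were chosen after their values were seen. Alternatives changed the centring, normalization, summary of probe sets, filter, prior, weights and arrays used. Promoter windows are RefSeq's for GRCr8, available here for 11968 of the genes.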

Additional observations from a re-analysis of the deposited data

Results flagged for a closer look

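Of 144 sets of 4 arrays, 1 for each named gene and each of both groups, 10 (6.94%) had an array farther from the rest than Dixon's test allows, where chance gives about 1 in 20. Hypoxia replicate 3 was low in red cell genes: Alas2 was 7.64 against 10.32 to 10.60 in the other hypoxia arrays, Hbb-b1 was 10.51 against 12.67 to 12.79 and Hbb was 11.29 against 13.25 to 13.34. Hypoxia replicate 1 was high for Mfap5, at 11.02 against 10.71 to 10.76. Hypoxia replicate 2 was high for Nr4a3, at 7.73 against 7.18 to 7.28, and hypoxia replicate 4 was low for Edn1, at 10.29 against 11.49 to 11.66. In the estradiol group replicate 4 stood apart for Cx3cr1, at 9.53 against 9.13 to 9.20, and for Gper1, at 8.23 against 8.52 to 8.57. Estradiol replicate 2 stood apart for Car4, at 11.39 against 11.15 to 11.17, and for Retnlg, at 9.84 against 8.87 to 9.00. In 6 of the 10 the array was from the hypoxia group.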

How the results depend on the processing

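The count of 112 called genes (45 higher, 67 lower) depended on the arrays and on the estimate of spread. It was 4 (2 and 2) with all probe sets, 4 (2 and 2) with array weights and 5 (4 and 1) with only the 8 arrays of both groups. Leaving out single arrays gave 3 to 355 calls (1 to 186 higher, 2 to 169 lower): 219 and 355 without estradiol replicates 1 and 4, 4 without estradiol replicate 2 or 3, and 7, 3 and 5 without hypoxia replicates 1, 2 and 4. Leaving out pairs of estradiol replicates gave 10 (3 and 7) without 1 and 2, 0 (0 and 0) without 1 and 3, 977 (450 and 527) without 1 and 4, 0 (0 and 0) without 2 and 3, 41 (22 and 19) without 2 and 4 and 32 (20 and 12) without 3 and 4. Genes without overlap, 965 with all arrays, numbered 1223 to 1847 without single arrays. Fewer arrays leave fewer chances to overlap, and without these pairs they numbered 2417, 2524, 3882, 2388, 3278 and 2695. The counts of 97 held and 14 resting calls were 62 and 49 with a ratio limit of 1.2, and 109 and 2 with a limit of 2. Between 112 and 161 genes were called after centring on the median, quantile normalization again, the mean of probe sets, trend and robust priors, leaving out the dimmest genes or leaving out normoxia replicate 4. All 112 genes, or the 109 of them tested without the dimmest genes, kept their sign in every gene-level alternative, and the cause of the lost calls was not tested. These alternatives reuse the arrays on which the genes were chosen. The median change over all genes was -0.02, so centring moved no direction. No paired analysis was possible because the labels give the groups no shared replicate numbers.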
